A study of Homo sapiens with 6 samples.

Results

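The genes examined here form the machinery that stores neurotransmitter in synaptic vesicles and releases it by exocytosis. A list of 42 genes was drawn up by function out of 60676 genes in the deposited tables. No measured value was in the rule, but earlier results of these data were known. Its lead gene, RPH3A, is named by the study among the transcripts most affected in these libraries, so shares of the list are descriptions. The list held 5 genes of Rab3 GTPases and their effector, 8 synaptotagmins and DOC2 proteins (labelled calcium sensors in figures), and 7 SNAREs and complexins. It also held 11 genes of the active zone and of vesicle priming, and 11 genes of vesicle membrane proteins, synapsins and recycling. These genes were measured by RNA sequencing in SK-N-BE, a human neuroblastoma cell line that takes on neuronal traits in retinoic acid. All cells had been transfected with small interfering RNAs (siRNAs) by lipofection and then kept for 1.5 days in differentiation medium with 10 µM retinoic acid. The 3 si-SCR libraries come from cells given a scrambled siRNA pool, and the 3 si-CyCoNP libraries from cells given an siRNA pool against the second exon of CyCoNP, a cytoplasmic long noncoding RNA of neural progenitors transcribed from LINC02381. The values describe 1 tumour line at 1 time point, and the labels do not say whether replicates were separate cultures, so that p-values measure the spread between these samples. Libraries held between 3762009 and 4799407 counted fragments, with no difference between groups beyond the spread (exact permutation test, two-sided, p = 0.9).

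A synaptic vesicle is marked by Rab3 GTPases, docked and primed at the active zone by RIM, Munc13 and CAPS proteins, and fused with the plasma membrane when a SNARE complex zippers up between both membranes. Complexins hold that complex in check, and synaptotagmins start fusion when calcium enters. Sympathoadrenal cells, from which neuroblastoma arises, use much of the same machinery to release catecholamines from dense-core granules. The question addressed was which of these genes change when CyCoNP is depleted in differentiating cells.

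The targeted transcript was lower in each si-CyCoNP library. LINC02381 had 274, 208 and 315 counts with si-SCR and 20, 30 and 12 counts with si-CyCoNP, and 7.27% of its normalised count was left. Its log2 fold change was -3.78 (SE 0.190, edgeR adjusted p = 6.95e-14). All 12 sympathoadrenal markers fixed for these cells reached at least 1 FPKM (fragments per gene length and library total, as scaled by the authors) in each library.

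Of the 42 genes, 30 passed the expression filter (a mean of at least 1 FPKM in either group) and were tested with edgeR in a fit over 13966 genes. Depletion of CyCoNP was followed by lower RNA of RPH3A, of the synaptotagmins SYT1, SYT11 and SYT5, of VAMP3, RIMS3, RAB3D, UNC13B and SNAP91, while the 3 core neuronal SNARE genes did not pass the test. At an adjusted p under 0.05, 9 of the 30 were lower in si-CyCoNP (30%, against 14.2% of all genes tested) and 2 were higher (6.67%, against 14.2%), or 9 and 4 when libraries were scaled by their totals alone. With a log2 fold change below -1 as well, 4 were called lower, RPH3A, SYT1, RIMS3 and SYT11 (13.3%, against 2.98%), and none was called higher with edgeR or DESeq2 (against 2.28%), 4 being higher at an unadjusted p under 0.05 with edgeR and 2 with DESeq2. Called lower were 2, RPH3A and SYT1, with library totals alone, and 1, RPH3A, with limma on log2(FPKM + 1) or log2(FPKM + 0.1). With limma at either pseudocount 6 members were lower at an adjusted p under 0.05, and SYT5, UNC13B and SNAP91 no longer passed. The median log2 fold change of the 30 was -0.19, beside 0.01 for all genes tested, and 22 of the 30 values were negative. Groups did not overlap in FPKM for 16 of the 30, of which 11 were lower, but 40.3% of all genes tested had groups that did not overlap. On the first principal component (51.4% of the variance) si-SCR replicate 3 lay nearest to the si-CyCoNP libraries, and without it 12 members were lower at an adjusted p under 0.05 and 4 were called lower. In RNA from a whole culture, fewer cells of a type and less RNA per cell cannot be told apart.

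**Figure D1:**
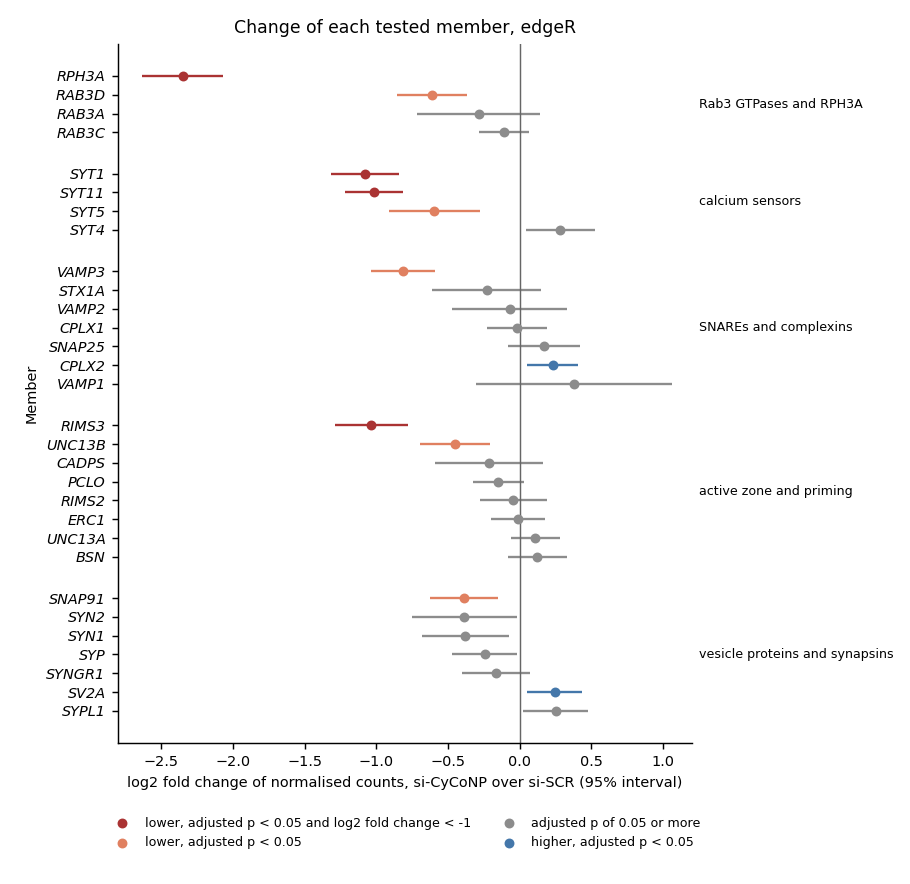
log2 fold change of normalised counts (si-CyCoNP over si-SCR, edgeR) for the 30 tested members, with 95% intervals, grouped by role. RPH3A at -2.35 stands apart on the left, SYT1, RIMS3 and SYT11 lie between -1.08 and -1.01, and the 19 grey genes between -0.38 and 0.38 did not pass the test.

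Levels per gene length differed widely among the members. The highest mean over the 6 libraries was that of SYT11 (62.7 FPKM), followed by SYT1 (57.0 FPKM), CPLX2 (48.0 FPKM), CPLX1 (38.4 FPKM) and SYT4 (24.2 FPKM). In si-SCR the libraries of SYT11 and SYT1 overlapped (72.3 to 90.7 FPKM and 58.6 to 86.3 FPKM), as did those of CPLX2 and CPLX1 (38.5 to 47.9 FPKM and 34.5 to 42.2 FPKM), although within each si-SCR library SYT11 lay above SYT1 and CPLX2 above CPLX1. In si-CyCoNP the highest mean was that of CPLX2, with 52.9 ± 3.57 FPKM (SD, n = 3) against 42.8 ± 5.70 FPKM for SYT11, and these libraries did not overlap. In all, 13 members had a mean above 10 FPKM. The 12 members that were not tested had means between 0 and 0.712 FPKM. They were RAB3B, the synaptotagmins SYT7 and SYT13, DOC2A and DOC2B, the vesicle proteins SV2B, SV2C, SYN3 and SYNGR3, and the active zone and priming genes RIMS1, CADPS2 and ERC2. SV2B and SYT13 had no count in any library.

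**Figure D2:**
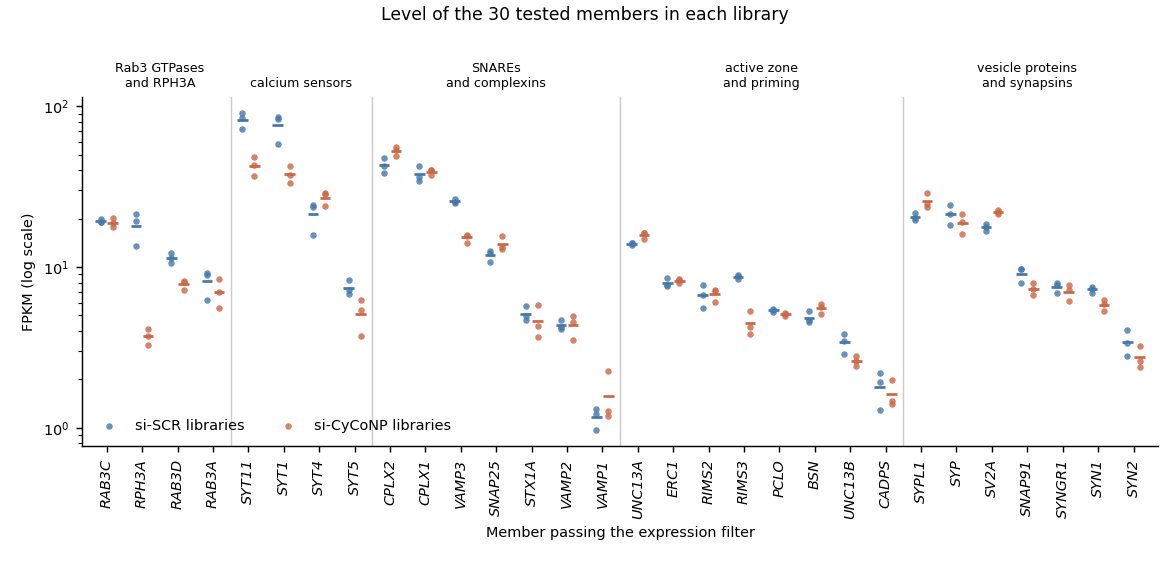
FPKM (log axis) of the 30 tested members in each of the 3 si-SCR and 3 si-CyCoNP libraries, with bars at the group means, grouped by role and ordered by level. SYT11, SYT1, CPLX2 and CPLX1 lie highest, and the libraries of RPH3A separate the most, with 13.5 to 21.3 FPKM in si-SCR and 3.26 to 4.13 FPKM in si-CyCoNP.

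In the Rab3 group 2 of 4 tested members were lower, and RPH3A had the largest log2 fold change of the 30 tested genes. It encodes rabphilin, an effector that binds active Rab3 on vesicles and, through its C2 domains, membrane lipids and SNAP25. RPH3A (ENSG00000089169, chr12:112570380-112898881, plus strand, GRCh38) was present at 19.4, 21.3 and 13.5 FPKM with si-SCR and 3.26, 3.73 and 4.13 FPKM with si-CyCoNP. The group means were 18.0 ± 4.05 FPKM and 3.71 ± 0.434 FPKM (SD, n = 3), and the lowest si-SCR library still lay above each si-CyCoNP library. Its log2 fold change was -2.35 (SE 0.139, edgeR adjusted p = 1.22e-12), a 5.11-fold decrease that left 19.6% of the normalised count. RPH3A is one of the genes the study followed after its own test on these libraries, so that its direction is not independent evidence. The study also silenced NCAM1, an adhesion gene it reports as lower after CyCoNP depletion, and found RPH3A lower by RT-qPCR. It states that the transcripts measured in that experiment are not predicted targets of miR-4492. A route through NCAM1 was not tested here. RAB3D, a Rab3 form best known from secretory granules of exocrine and endocrine cells, was present at 10.7, 11.3 and 12.3 FPKM with si-SCR and 8.17, 7.19 and 8.09 FPKM with si-CyCoNP. Its libraries did not overlap between groups, and its log2 fold change was -0.61 (SE 0.120, edgeR adjusted p = 0.000259). Exons of RAB3D overlap those of TMEM205 on the same strand, which makes its count less certain. The main neuronal form RAB3A (-0.29, edgeR adjusted p = 0.344, -0.72 to 0.14 as the 95% interval) and RAB3C (-0.11, adjusted p = 0.372, -0.28 to 0.06) did not pass the test. RAB3B stayed under the filter, with 30, 13 and 19 counts with si-SCR and 10, 16 and 8 counts with si-CyCoNP.

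The promoter of RPH3A is shown because it holds the core of an RE1 element, the site bound by the repressor REST that keeps many neuronal genes silent outside neurons. Promoter windows of 300 bases around annotated starts were taken from RefSeq (GRCh38.p14), where 32 of the 42 genes had an entry, and searched on both strands for AGCACC followed by any 2 bases and GGACAG. Among the 32, RPH3A and SYN1 held it (6.25%), against 18 of 27305 genes (0.0659%) and 20 of 35116 promoters (0.0570%) in all. The search took exact matches alone, so sites that differ from it or lie outside the windows were not counted. RPH3A has 3 windows, of which 2 overlap and hold the same match. One of these and the window of SYN1 read, 5′ to 3′ on the strand of the gene, with the core in capitals:
RPH3A (chr12:112791498-112791797, plus strand): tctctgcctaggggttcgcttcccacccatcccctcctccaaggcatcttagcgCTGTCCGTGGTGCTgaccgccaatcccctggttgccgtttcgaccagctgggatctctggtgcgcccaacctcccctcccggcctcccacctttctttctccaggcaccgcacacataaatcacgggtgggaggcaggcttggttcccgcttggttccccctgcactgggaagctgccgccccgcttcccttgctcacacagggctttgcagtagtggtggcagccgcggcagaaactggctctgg
SYN1 (chrX:47619808-47620107, minus strand): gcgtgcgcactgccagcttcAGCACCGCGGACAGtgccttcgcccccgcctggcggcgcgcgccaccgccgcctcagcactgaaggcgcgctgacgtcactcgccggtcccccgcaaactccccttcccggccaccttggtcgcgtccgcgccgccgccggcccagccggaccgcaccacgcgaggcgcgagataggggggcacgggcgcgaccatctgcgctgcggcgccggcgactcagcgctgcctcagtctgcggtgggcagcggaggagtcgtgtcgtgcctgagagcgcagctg

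In the RPH3A window the core runs on the opposite strand, in the SYN1 window on the strand of the gene. These 20 promoters belong to 18 genes, of which 5 were tested. RPH3A, OGDHL (-1.64, edgeR adjusted p = 3.38e-10) and FAM163B (-0.48, adjusted p = 0.00976) were lower, while SYN1 (-0.38, adjusted p = 0.0557) and SCAMP5 (-0.13, adjusted p = 0.234) did not pass the test. Over all genes tested 14.2% were lower, and 5 genes are too few to compare with that share. RPH3A, whose promoter is shown for this match, is counted among the 5. A part of REST was not tested. A match is a description of the letters and not a bound site.

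Of the 8 synaptotagmins and DOC2 proteins 4 were tested, and 3 of these, SYT1, SYT11 and SYT5, were lower. SYT1 is the fast calcium sensor of synchronous release, SYT11 a synaptotagmin that does not bind calcium and acts in vesicle recycling, SYT5 a sensor found on dense-core granules, and SYT4 a form of maturing granules that is induced by activity. SYT1 (ENSG00000067715, chr12:78863993-79452008, plus strand) was present at 86.3, 83.8 and 58.6 FPKM with si-SCR and 42.6, 37.6 and 33.2 FPKM with si-CyCoNP. No si-CyCoNP library reached the si-SCR range, and the log2 fold change was -1.08 (SE 0.115, edgeR adjusted p = 4.33e-08), with 47.2% of the normalised count left. SYT11 (ENSG00000132718, chr1:155859567-155885199, plus strand) was present at 90.7, 84.5 and 72.3 FPKM with si-SCR and 48.3, 43.2 and 36.9 FPKM with si-CyCoNP. Groups did not overlap either, and the log2 fold change was -1.01 (SE 0.0983, edgeR adjusted p = 8.82e-09), with 49.4% left. Both values rest on at least 793 counts in each library. SYT5 was present at 6.76, 8.34 and 7.24 FPKM with si-SCR and 6.25, 5.39 and 3.71 FPKM with si-CyCoNP. Its lowest si-SCR library lay above its highest si-CyCoNP library, and its log2 fold change was -0.60 (SE 0.154, edgeR adjusted p = 0.00426). SYT5 did not pass with limma on log2(FPKM + 0.1) (adjusted p = 0.0969) or log2(FPKM + 1) (adjusted p = 0.0932). SYT4 was present at 15.7, 23.7 and 24.4 FPKM with si-SCR and 28.4, 28.8 and 24.0 FPKM with si-CyCoNP. The groups overlapped, however, and its log2 fold change of 0.28 (SE 0.118, 95% interval 0.04 to 0.53) did not pass the test (edgeR adjusted p = 0.0745). SYT4 passed without si-SCR replicate 2 (0.37, adjusted p = 0.0324), si-SCR replicate 3 (0.38, adjusted p = 0.00155) or si-CyCoNP replicate 3 (0.36, adjusted p = 0.0376), and was at 0.12 without si-SCR replicate 1 (adjusted p = 0.455). It also passed with the replicate number as a block (adjusted p = 0.00778) and with library totals alone (adjusted p = 0.0327).

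Shares within the synaptotagmins were compared library by library. The summed FPKM of SYT1, SYT4, SYT5, SYT7, SYT11 and SYT13 was 188 ± 21.8 in si-SCR and 114 ± 14.3 in si-CyCoNP (SD, n = 3). SYT4 made up 7.85%, 11.8% and 15.0% of that sum in the si-SCR libraries and 22.5%, 24.9% and 24.4% in the si-CyCoNP libraries. The share of SYT1 went from 40.2% ± 3.78 to 33.3% ± 0.722 and that of SYT11 from 43.9% ± 1.69 to 37.7% ± 0.431. Shares do not depend on the scaling of a library. Those of a family add up to the whole, so the share of SYT4 rises when SYT1 and SYT11 fall. Groups did not overlap for any of these 3 genes, as was the case for 22 of the 38 shares compared over all families. For the same reason the 38 shares are not separate comparisons. With 3 libraries against 3, the exact permutation test cannot go below p = 0.1 (two-sided), which is the value it gave for each of the 3 genes. Of the DOC2 proteins, high-affinity calcium sensors of spontaneous release, DOC2B had 25, 17 and 15 counts with si-SCR and 7, 8 and 4 counts with si-CyCoNP, with groups that did not overlap. In an edgeR fit with no filter its log2 fold change was -1.68 (SE 0.434, adjusted p = 0.00139). DOC2A had 11, 11 and 13 counts with si-SCR and 12, 10 and 14 counts with si-CyCoNP and no such difference was detectable at this depth.

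Of the 7 SNAREs and complexins, all of them tested, VAMP3 was lower and CPLX2 higher, and the other 5 did not pass the test. SNAP25, STX1A and VAMP2 form the complex that drives neuronal exocytosis, and VAMP3 (cellubrevin) is the vesicle SNARE of recycling endosomes, found in most cell types. VAMP3 was present at 25.0, 25.5 and 26.5 FPKM with si-SCR and 15.9, 14.2 and 15.7 FPKM with si-CyCoNP. The groups were far apart relative to their spread, and the log2 fold change was -0.81 (SE 0.108, edgeR adjusted p = 1.54e-06), with 56.9% of the normalised count left. SNAP25 was present at 10.7, 12.3 and 12.6 FPKM with si-SCR and 15.6, 13.2 and 12.9 FPKM with si-CyCoNP, and its log2 fold change, 0.17, missed the threshold (edgeR adjusted p = 0.335). Its 95% interval of -0.08 to 0.42 lies above the value of VAMP3. The intervals of STX1A (-0.23, -0.61 to 0.15, adjusted p = 0.393) and VAMP2 (-0.07, -0.47 to 0.33, adjusted p = 0.829) were wider, at 74, 80 and 88 and 65, 50 and 66 counts in si-SCR. VAMP1, a close relative of VAMP2, was the least abundant member tested, at 13 to 39 counts a library, and had a log2 fold change of 0.38 with the widest error (SE 0.332, edgeR adjusted p = 0.436). VAMP3 made up 82.3% ± 1.40 of the summed FPKM of VAMP1, VAMP2 and VAMP3 in si-SCR and 72.2% ± 3.89 in si-CyCoNP (exact permutation test, p = 0.1). Exons of SNAP25 and VAMP2 overlap other annotated transcripts on the same strand.

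The complexins CPLX1 and CPLX2, small proteins that clamp and then help the SNARE complex, were among the most abundant members. CPLX2 was present at 47.9, 38.5 and 42.7 FPKM with si-SCR and 53.5, 56.1 and 49.1 FPKM with si-CyCoNP. Each si-CyCoNP library lay above each si-SCR library, and the log2 fold change was 0.23 (SE 0.0865, edgeR adjusted p = 0.0472), just inside the threshold. The adjusted p of CPLX2 was 0.0822 with DESeq2, and it also missed the threshold without si-SCR replicate 2 (0.242), si-CyCoNP replicate 1 (0.129) or si-CyCoNP replicate 2 (0.184). CPLX1 was present at 42.2, 36.6 and 34.5 FPKM with si-SCR and 40.0, 39.9 and 37.4 FPKM with si-CyCoNP. The groups overlapped, and the log2 fold change of -0.02 had a 95% interval of -0.22 to 0.19 and did not pass the test (edgeR adjusted p = 0.919).

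Of the active zone and priming genes, 2 of 8 tested members were lower and none was higher. RIMS3 is the short RIM protein that keeps only the last C2 domain of the family, UNC13B (Munc13-2) a priming factor, and RIMS2 and UNC13A the larger RIM and the main Munc13 of neurons. RIMS3 (ENSG00000117016, chr1:40620680-40665682, minus strand) was present at 8.44, 8.83 and 8.87 FPKM with si-SCR and 3.82, 5.32 and 4.25 FPKM with si-CyCoNP. The si-SCR libraries were close together and all above the si-CyCoNP libraries, and the log2 fold change was -1.04 (SE 0.124, edgeR adjusted p = 2.61e-07), with 48.9% left. RIMS2, at 6.68 ± 1.08 FPKM and 6.79 ± 0.651 FPKM (SD, n = 3), had a log2 fold change of -0.05 and did not pass the test (edgeR adjusted p = 0.806, 95% interval -0.28 to 0.19). RIMS3 was the larger part of the RIM pool in si-SCR, 51.9%, 56.2% and 61.4% of the summed FPKM of RIMS1, RIMS2 and RIMS3, and the smaller part in si-CyCoNP, 38.5%, 42.4% and 37.5%. UNC13B was lower by a smaller amount, -0.45 (SE 0.117, edgeR adjusted p = 0.00442), and UNC13A was not (0.11, adjusted p = 0.374, 95% interval -0.06 to 0.28). The share of UNC13B in the summed FPKM of both went from 19.5% ± 2.12 to 14.2% ± 0.455 (exact permutation test, p = 0.1). The large scaffolds BSN (0.12, adjusted p = 0.398) and PCLO (-0.15, adjusted p = 0.223) and the scaffold ERC1 (-0.01, adjusted p = 0.937) did not pass the test. Neither did CADPS, the CAPS priming factor of dense-core granules (-0.21, SE 0.184, adjusted p = 0.428), although without si-SCR replicate 3 it was lower (-0.44, adjusted p = 0.0292). RIMS1, ERC2 and CADPS2 had at most 6, 3 and 2 counts in a library.

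**Figure D3:**
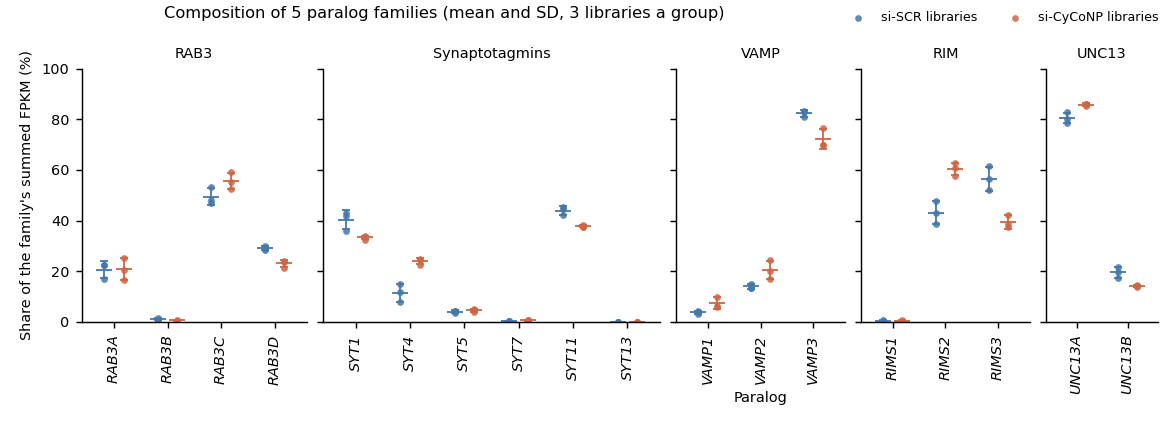
Share (%) of each paralog in the summed FPKM of its family for 5 families, with 1 point a library and the mean and SD over 3 libraries a group. The RIM family here is RIMS1, RIMS2 and RIMS3, without RIMS4. By FPKM within these genes, RIMS3 and RIMS2 change places between si-SCR (56.5% and 43.0%) and si-CyCoNP (39.4% and 60.4%), and SYT4 goes from 11.5% to 23.9%.

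The start regions of SYT1, SYT11 and RIMS3, the other members called lower, are shown for comparison, since no RE1 core was found in them. Capitals mark GGGCGG (the GC box), CCAAT and CAGCTG (an E-box) on either strand:
SYT1 (chr12:78864524-78864823, plus strand): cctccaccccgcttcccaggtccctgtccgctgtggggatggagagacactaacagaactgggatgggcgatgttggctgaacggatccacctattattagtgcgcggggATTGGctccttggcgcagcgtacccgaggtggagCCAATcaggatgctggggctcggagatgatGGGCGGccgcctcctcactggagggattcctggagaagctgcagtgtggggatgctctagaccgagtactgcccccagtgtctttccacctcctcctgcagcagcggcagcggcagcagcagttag
SYT11 (chr1:155859317-155859616, plus strand): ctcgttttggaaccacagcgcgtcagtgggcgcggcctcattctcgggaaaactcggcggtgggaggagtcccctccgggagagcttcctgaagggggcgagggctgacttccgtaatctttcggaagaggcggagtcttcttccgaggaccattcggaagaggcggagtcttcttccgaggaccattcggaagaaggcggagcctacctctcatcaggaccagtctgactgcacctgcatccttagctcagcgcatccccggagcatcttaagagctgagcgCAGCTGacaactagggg
RIMS3 (chr1:40665633-40665932, minus strand): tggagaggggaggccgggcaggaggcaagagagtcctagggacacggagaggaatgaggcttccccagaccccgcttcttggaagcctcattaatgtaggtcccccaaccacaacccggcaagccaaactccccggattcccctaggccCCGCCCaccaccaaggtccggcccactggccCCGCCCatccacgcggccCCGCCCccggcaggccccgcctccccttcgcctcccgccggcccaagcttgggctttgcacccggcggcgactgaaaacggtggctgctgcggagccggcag

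SYT1 held a GC box and CCAAT on both strands, SYT11 an E-box, and RIMS3 3 GC boxes on the opposite strand. In all, promoters of 25 of the 32 matched members held GGGCGG (78.1%, beside 48.3% of 27305 genes and 45.0% of promoters). CCAAT occurred in 9 of the 32 (28.1%, beside 39.7% of genes and 34.6% of promoters) and CAGCTG in 9 (28.1%, beside 21.1% of genes and 17.9% of promoters). AGGTCA, the core of nuclear receptor sites, occurred in 4 (12.5%, beside 16.5% of genes and 13.8% of promoters), and TGACGTCA, the cAMP response element, in SYN1 alone (3.13%, beside 2.25% of genes and 1.85% of promoters).

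Of the 11 genes of vesicle membrane proteins, synapsins and recycling, 7 were tested. SNAP91 was lower, SV2A was higher, and the other 5 did not pass the test. SNAP91 (AP180), which gathers clathrin to retrieve vesicle membrane, was present at 9.70, 7.91 and 9.68 FPKM with si-SCR and 6.67, 7.32 and 7.91 FPKM with si-CyCoNP. Its highest si-CyCoNP library lay just under its lowest si-SCR library, and its log2 fold change was -0.39 (SE 0.116, edgeR adjusted p = 0.0118). SNAP91 did not pass without si-SCR replicate 1 (adjusted p = 0.0534) or si-CyCoNP replicate 1 (adjusted p = 0.0709). It also missed the threshold with limma on log2(FPKM + 0.1) (adjusted p = 0.112) or log2(FPKM + 1) (adjusted p = 0.109). SV2A, a glycoprotein of nearly all synaptic vesicles and the target of the antiepileptic levetiracetam, was present at 18.6, 16.8 and 17.9 FPKM with si-SCR and 22.6, 22.1 and 21.4 FPKM with si-CyCoNP. All 3 si-CyCoNP libraries were above all 3 si-SCR libraries, yet the log2 fold change was small, 0.24 (SE 0.0926, edgeR adjusted p = 0.0491), and DESeq2 gave an adjusted p of 0.113. The adjusted p of SV2A lay between 0.0867 and 0.172 without any 1 of 5 libraries, and passed only when si-SCR replicate 1 was left out (0.0335). The vesicle marker SYP (-0.24, adjusted p = 0.105), its relative SYPL1 (0.25, adjusted p = 0.0901) and SYNGR1 (-0.17, adjusted p = 0.318) did not pass the test. SYP was lower without si-SCR replicate 3 (-0.36, adjusted p = 0.00184) and with the replicate number as a block (-0.25, adjusted p = 0.0148), and SYPL1 was higher with that block (0.25, adjusted p = 0.0385) and with library totals alone (0.32, adjusted p = 0.0290). The synapsins SYN1 (-0.38, adjusted p = 0.0557) and SYN2 (-0.38, adjusted p = 0.113), which tether vesicles in the reserve pool, had nearly equal values short of the threshold, and SYN1 passed without si-SCR replicate 3 (-0.44, adjusted p = 0.0379) and with the block (adjusted p = 0.0291). SYNGR3 had 13, 11 and 11 counts with si-SCR and 3, 2 and 0 counts with si-CyCoNP, so that no si-CyCoNP library exceeded the floor of 3 counts and no fold change is given. It passed the test in the edgeR fit with no filter (adjusted p = 0.000433).

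The 4 calls at a log2 fold change below -1 were not equally firm. RPH3A lay between -2.54 and -2.0 in 14 alternative settings, and its 95% interval of -2.64 to -2.07 stayed clear of -1. For SYT1, SYT11 and RIMS3 the decrease passed the adjusted p in all 14 settings, but their values straddled -1, with intervals of -1.32 to -0.84, -1.22 to -0.81 and -1.29 to -0.78. Leaving out si-SCR replicate 1 put SYT1 at -0.97 and SYT11 at -0.93, which left 2 members called lower. SYT11 also fell short of -1 without si-SCR replicate 2 (-0.99) or si-CyCoNP replicate 3 (-0.93), and RIMS3 without si-CyCoNP replicate 1 (-0.93). With library totals alone SYT1 was at -1.01, RIMS3 at -0.97 and SYT11 at -0.94, and with limma on log2(FPKM + 1) the values were -0.98, -0.84 and -0.93. VAMP3 and RAB3D also passed in every setting.

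**Figure D4:**
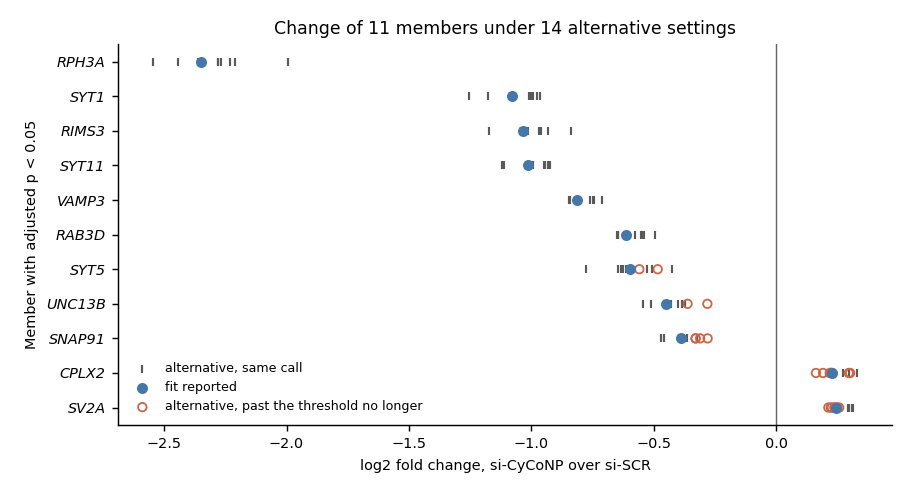
log2 fold change (si-CyCoNP over si-SCR) of the 11 members with an adjusted p under 0.05, in the reported edgeR fit (filled circles) and in 14 alternative settings (ticks where the member passed, open circles where it did not). Signs were the same throughout, and open circles occur for SYT5, UNC13B, SNAP91, CPLX2 and SV2A.

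miR-4492 was examined because the study describes CyCoNP as a transcript that binds it. Its mature sequence (RefSeq, chr11:118910765-118910781, plus strand) carries the seed, bases 2 to 8, in capitals:
hsa-miR-4492: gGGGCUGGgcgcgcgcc
A perfect match to the seed reads CCAGCCC in the 3′ untranslated region (UTR) of a target. In the canonical transcripts of GENCODE (GRCh38), 16 of the 42 members held at least 1 such match, with 39 matches in all. Among tested members it was 11 of 30 (36.7%), beside 23.4% of 10490 tested genes with an annotated 3′ UTR, and the median 3′ UTR was 2167 bases long in the members against 1396.5 in those genes. The match was found in 3 of the 9 members that were lower (RIMS3, RAB3D and SYT5), in 1 of the 2 that were higher (CPLX2, with 6 matches) and in 7 of the 19 that did not pass the test. RPH3A, SYT1 and SYT11 had none. The sites of the 3 lower members and the first of CPLX2 read, with the match in capitals and 10 bases on each side:
RIMS3 (chr1:40622803-40622829, minus strand): ccctggggttCCAGCCCtcctaatacc
RAB3D (chr19:11323757-11323783, minus strand): gtctgctctcCCAGCCCctgaagccaa
SYT5 (chr19:55173392-55173418, minus strand): caaagccaagCCAGCCCcacccttaag
CPLX2 (chr5:175880397-175880423, plus strand): atgacacattCCAGCCCtgcccagcat

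Of all 16 members with a match, DOC2B had the most, 8, followed by CPLX2 with 6, SYT7 with 5, ERC1 with 4 and VAMP1 with 3. A seed match is a description of the letters, and whether the miRNA acts there was not tested.

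Other genes of exocytosis and vesicle recycling were taken as 7 lists with 136 genes, of which 93 were tested. In them 21 were lower (22.6%) and 13 higher, beside 14.2% in each direction over all genes tested, and their median log2 fold change was -0.08. The list of other synaptotagmins, which also held the extended synaptotagmins ESYT1 and ESYT2, had 3 of 5 tested genes lower and none higher. The lower genes were SYT9, SYT14 (-0.25, edgeR adjusted p = 0.0314) and ESYT1 (-0.37, adjusted p = 0.00187). SYT2 (0.32, adjusted p = 0.0907) and ESYT2 (-0.16) did not pass the test. SYT9, a fast calcium sensor related to SYT1 and SYT2, had group means of 7.94 ± 0.317 FPKM and 3.61 ± 1.19 FPKM (SD, n = 3). It changed by -1.22 (SE 0.173, edgeR adjusted p = 4.08e-06) on the log2 scale. Of 12 regulators and effectors of Rab3 and Rab27, 3 were lower and 1 higher, and RAB27B, a GTPase that docks secretory granules, was called lower at -1.10 (SE 0.169, edgeR adjusted p = 1.25e-05). Of 16 other SNAREs 3 were lower and none higher, and the called gene was VAMP5, at -1.18 (SE 0.440, edgeR adjusted p = 0.0458) on 6 to 19 counts a library. The active zone scaffold had 2 lower and 3 higher of 11, and APBA1 (Mint1), an adaptor that binds Munc18, was called lower with 14.2, 15.7 and 15.9 FPKM with si-SCR and 6.73, 7.65 and 7.12 FPKM with si-CyCoNP, and changed by -1.16 (SE 0.0900, edgeR adjusted p = 1.80e-10) on the log2 scale. Vesicle recycling had 5 lower and 5 higher of 23, and DNM1, the neuronal dynamin that cuts vesicles from the membrane, was called higher, at 2.81, 2.57 and 2.72 FPKM with si-SCR and 6.88, 7.58 and 6.20 FPKM with si-CyCoNP, and changed by 1.28 (SE 0.118, edgeR adjusted p = 3.40e-09) on the log2 scale. SNARE accessory genes had 2 lower and 2 higher of 11, and other vesicle membrane proteins 3 lower and 2 higher of 15.

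**Figure D5:**
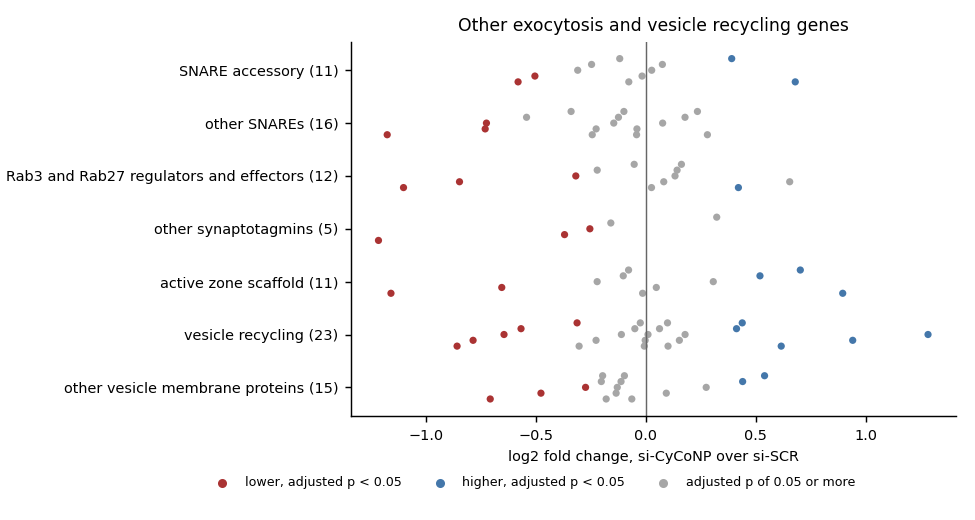
log2 fold change (si-CyCoNP over si-SCR, edgeR) of 93 tested genes in 7 lists of exocytosis and vesicle recycling genes, with 1 point a gene and the number tested in parentheses. DNM1 at 1.28 lies farthest to the right and SYT9 at -1.22 farthest to the left, and vesicle recycling has 5 genes past the threshold on each side.

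Cell type markers moved with the groups, and their part in the results above was not tested. The summed FPKM of the 12 sympathoadrenal markers was 2961 to 3465 in si-SCR and 2364 to 2576 in si-CyCoNP. Of these 12, 9 were lower and 1 higher, beside 14.2% in each direction over all genes tested. Among the lower markers were the dense-core granule proteins CHGA (-1.24, edgeR adjusted p = 9.20e-09) and CHGB (-1.01, adjusted p = 1.97e-09). The higher marker was MYCN (0.84, edgeR adjusted p = 2.65e-09), at 408 to 446 FPKM in si-SCR and 766 to 872 FPKM in si-CyCoNP. The sum therefore mixes both directions, and these genes are named after their values were seen. The 10 mesenchymal markers summed to 65.0 to 72.4 FPKM in si-SCR and 55.2 to 64.3 FPKM in si-CyCoNP, with 2 lower and 2 higher of 6 tested, and with COL1A2 and PRRX1 at 0 in each library. Most of that sum was VIM, at 52.2 to 60.4 FPKM in si-SCR and 41.6 to 47.1 FPKM in si-CyCoNP, so it does not describe the set. VIM (-0.43, edgeR adjusted p = 0.000412) and SNAI2 (-1.27, adjusted p = 9.77e-06) were lower, while the matrix genes FN1 (2.88, adjusted p = 1.30e-13), at 0.587 to 0.802 FPKM in si-SCR and 4.42 to 6.31 FPKM in si-CyCoNP, and COL1A1 (1.68, adjusted p = 8.62e-06) were higher, all 4 being named after their values were seen as well. Of the Schwann and glial markers reported here, SOX10 was at 0 in each library, S100B lay between 0.129 and 0.695 FPKM in si-SCR and between 0.134 and 0.461 FPKM in si-CyCoNP, and GFAP and ERBB3 reached at most 0.0534 FPKM in any library. The 5 blood and endothelial markers summed to at most 0.152 FPKM in any library.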

How the data were processed

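RNA sequencing of 6 SK-N-BE libraries (3 si-SCR, 3 si-CyCoNP, by sample title) was analysed from both deposited tables. The authors prepared stranded total RNA libraries after removal of ribosomal RNA. They trimmed reads (Trimmomatic 0.39, Cutadapt 3.2), discarded ribosomal reads (Bowtie2 2.4.2) and aligned the rest to GRCh38 with STAR 2.7.7a. The deposited counts are raw, made by the authors as uniquely mapping fragments per Ensembl gene, so paralogs and genes with shared exons can lose reads. The deposited FPKM values were scaled by the authors to gene length and library total, with no correction for library composition.

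The expression filter kept 13966 genes whose mean FPKM reached 1 in si-SCR or in si-CyCoNP. After TMM normalisation, counts were compared in edgeR 4.0.16 (quasi-likelihood, R 4.3.3), with Benjamini-Hochberg adjustment over all of them. The methods of the study name DESeq2, run here as an alternative (version 1.42.0). A gene was called at an adjusted p under 0.05 and an absolute log2 fold change above 1. The steps were tested on simulated data. A floor of 3 counts was set as a fixed value, and totals are those of the count table. Symbols came from a table of Ensembl identifiers, positions and 3′ UTRs from GENCODE (GRCh38), promoters and the miRNA from RefSeq.

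The members, the lists and the tests were chosen with earlier results of these data known. RPH3A, members with an adjusted p under 0.05 and an absolute log2 fold change of at least 0.5, and the 5 most abundant members are given in every library, and of other lists the called genes. Alternatives were DESeq2, its size factors in edgeR, library totals alone, no filter, the filter that edgeR sets by default, a block for the replicate number, the omission of each library in turn, and limma 3.58.1 on log2(FPKM + 1) or log2(FPKM + 0.1). For the lists of other genes the alternatives were added after the data had been seen. The list of Schwann and glial markers held 2 more genes, which are not reported here, so no sum is given for that list.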

Additional observations from a re-analysis of the deposited data

How the results depend on the processing

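In 14 alternative settings the 30 tested members gave 420 values, of which 365 kept their direction and their side of the threshold, 24 kept the direction but no longer passed, 14 newly passed and 17 changed sign. Signs changed only for 4 members near 0. With library totals alone the log2 fold change was 0.0239 for RIMS2, 0.0505 for CPLX1 and 0.0541 for ERC1, with limma on log2(FPKM + 0.1) it was 0.0311, 0.0537 and 0.0536, and with limma on log2(FPKM + 1) it was 0.0266, 0.0524 and 0.0481. Without 1 library it ran from -0.186 to 0.0912 for RIMS2, from -0.102 to 0.0860 for CPLX1, from -0.0653 to 0.0460 for ERC1 and from -0.163 to 0.0509 for VAMP2.

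Members higher at adjusted p numbered 0 with DESeq2 or with its size factors, 1 with the default filter of edgeR and with limma at either pseudocount, and 4 with library totals alone, and between 0 and 2 without 1 library. At an unadjusted p under 0.05, 4 members were higher with edgeR and 2 with DESeq2. Members called lower numbered 2 with library totals alone, 1 with limma at either pseudocount, and between 2 and 4 without 1 library. Over all genes, limma on log2(FPKM + 1) called 180 lower and 207 higher, against 416 and 319. The cause was not tested. Members lower at adjusted p numbered 6 with limma at either pseudocount, against 9, as SYT5, UNC13B and SNAP91 did not pass there. The other counts given stayed within 1.5 times of those reported.

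Same-numbered libraries had correlations of 0.0907, 0.0727 and 0.108 between their deviations, not all over 0.1, and each library correlated best with its own number, which is a hint from the data only. With the replicate number as a block, 11 members were lower, with SYP and SYN1 added, and 4 higher, with SYT4 and SYPL1 added. At 3762009 to 4799407 counted fragments a library, SYT13 and SV2B had no counts to compare. The other 10 untested members had values in the edgeR fit with no filter, where DOC2B and SYNGR3 passed (adjusted p = 0.00139 and 0.000433).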
